A study of Glycine max and Zea mays with 6 samples.

Results

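The CRK genes of soybean (Glycine max) were described by their histone marks in leaf. Members were the protein-coding genes on chromosomes 1 to 20 whose symbol is CRK followed by a number in the RefSeq gene table of the assembly Glycine_max_v4.0. There were 85 of them among 46816 protein-coding genes, on 15 chromosomes. A further entry, CRK10, is listed as a long non-coding RNA and was left out. A member counted as clustered when the next CRK gene lay within 50 kb and as single otherwise, which gave 67 clustered genes in 15 clusters and 18 single genes. The widest distance from a clustered gene to its nearest CRK gene was 40.8 kb, and the nearest pair of single genes, CRK13 and CRK14, lay 69.6 kb apart.

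The marks came from chromatin immunoprecipitation and sequencing of untreated William82 plants grown in soil for about 10 days at 25 °C with 16 h of light, from which the 2nd and 3rd leaves were taken. The marks were H3K4me3 and H3K36me3, trimethylation of histone H3 at lysines 4 and 36, and H3K56ac, acetylation of the same histone at lysine 56. Each was mapped in 1 library, so no value has a replicate check and no difference has a test between samples. The deposited lists give the position of each peak without a height or read count, so the depth is unknown and genes without a peak may still hold signal below the authors' threshold. In whole leaves, a mark in few cells and a weak mark in many cells cannot be told apart.

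CRK is the usual name of the cysteine-rich receptor-like kinases, plant membrane proteins with an extracellular part that carries a conserved cysteine motif and a protein kinase inside the cell. In Arabidopsis many of them respond to pathogens, salicylic acid, reactive oxygen species and drought, and family members often lie side by side on a chromosome. The same letters are used in Arabidopsis for kinases related to calcium-dependent protein kinases. The gene table gives no product names and protein sequences were not used here, so membership rests on the symbol. Of the marks, H3K4me3 and H3K56ac are known in plants from the beginnings of transcribed genes, and H3K36me3 from the bodies of transcribed genes.

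The lists held 51142 H3K4me3 peaks, 60424 H3K56ac peaks and 32195 H3K36me3 regions on the 20 chromosomes, with median lengths of 860 bp, 729 bp and 2400 bp. As a check of the tissue, the Rubisco genes RBCS1 (small subunit) and RCABETA (activase) carried all 3 marks and the chlorophyll-binding protein gene CAB3 carried H3K4me3 and H3K56ac. The 6 seed glycinin genes found, GY1 to GY5 and GY7, had neither H3K56ac nor H3K36me3, but all 6 held some H3K4me3, from 246 bp at GY1 to 2376 bp at GY7, compared with 1588 bp at RBCS1. H3K4me3 alone did not separate these seed genes from the leaf genes. No gene was matched to the leghemoglobin symbol LBC.

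Most CRK genes carried H3K4me3, a little over 1 in 2 carried H3K56ac, and few carried H3K36me3. H3K4me3 lay within 1 kb of a gene end at 58 of 85 members (68.2%, exact 95% interval 57.2 to 77.9), against 73.1% of all protein-coding genes. H3K56ac lay there at 49 members (57.6%, interval 46.4 to 68.3), against 69.5%. H3K36me3 overlapped 14 members (16.5%, interval 9.31 to 26.1), against 51.1%. All 3 marks were found at 11 members (12.9%, interval 6.64 to 22.0), against 49.3%, and no mark at 18 members (21.2%, interval 13.1 to 31.4), against 22.2%. The intervals cover counting error alone, and genes of a cluster are not independent.

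CRK genes are longer than the typical gene, with a median of 4611 bp against 3351 bp. Among the 12348 protein-coding genes between the members' length quartiles (3638 and 6148 bp), 83.8% carried H3K4me3, 82.2% H3K56ac, 66.6% H3K36me3 and 64.6% all 3, and 11.9% had no mark. The CRK share lay below the share of these genes for each mark. For H3K36me3 the share also lay below the 44.3% of the 2348 protein-coding genes that have a proper symbol.

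**Figure D1:**
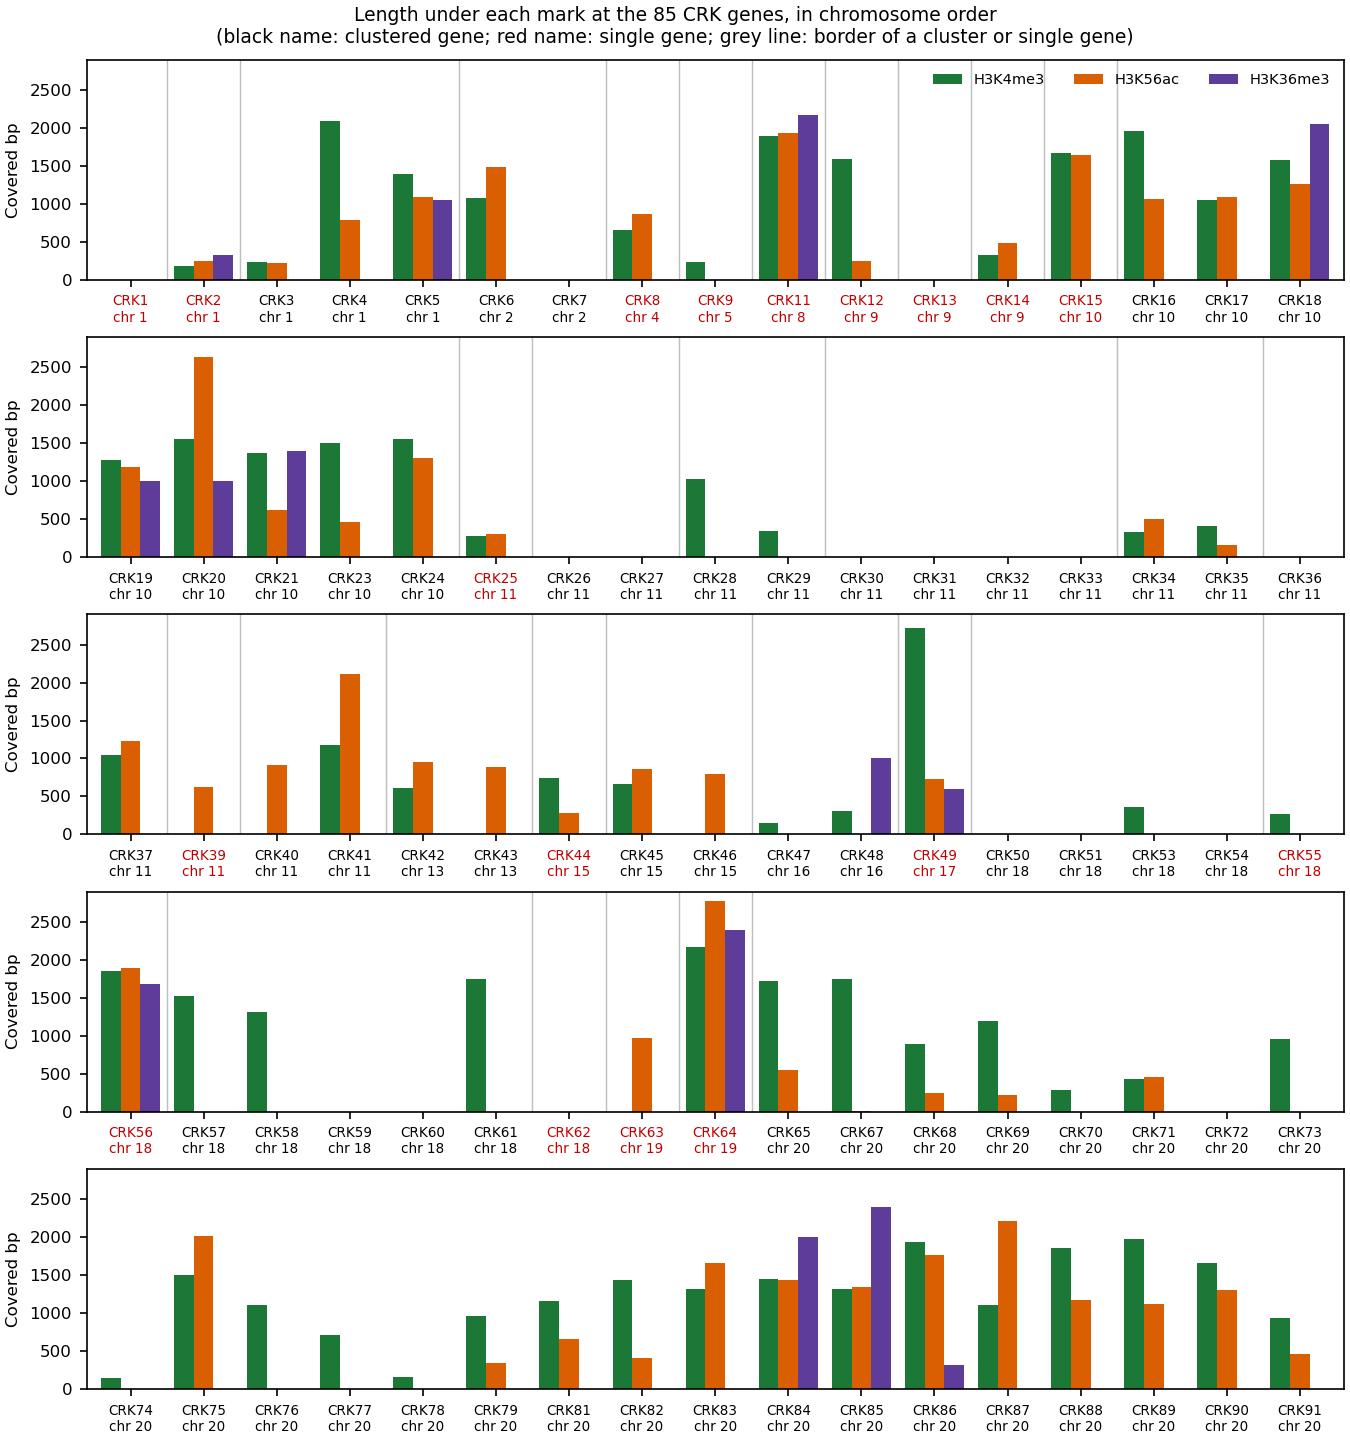
Length in bp under H3K4me3 and H3K56ac (gene and 1 kb either side) and under H3K36me3 (gene alone) at each of the 85 CRK genes in chromosome order, 1 library per mark, with names of clustered genes in black, names of single genes in red and grey lines at the borders of clusters. H3K36me3 bars stand at 14 genes, and 17 genes have no bar.

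The largest class of CRK genes had H3K4me3 and H3K56ac without H3K36me3. It held 31 of 85 members (36.5%, interval 26.3 to 47.6), against 16.3% of all protein-coding genes. The next were 18 members without a mark and 15 members with H3K4me3 alone (17.6%, interval 10.2 to 27.4), against 6.76%. H3K56ac was the only mark called at 7 members, CRK39, CRK40, CRK41, CRK43, CRK46, CRK63 and CRK68 (8.24%, interval 3.38 to 16.2), against 3.61%. These classes count narrow marks within 1 kb of an end alone. Farther inside, CRK41 and CRK68 also held H3K4me3, and CRK12, counted with H3K4me3 alone, and CRK49 held H3K56ac. The rare classes were H3K36me3 without a narrow mark near an end, at CRK2 and CRK48 (against 0.758%), and H3K4me3 with H3K36me3, at CRK49 (against 0.748%). The combination of H3K56ac and H3K36me3 without H3K4me3, found at 0.333% of protein-coding genes, was at 0 members.

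The 11 CRK genes with all 3 marks were CRK5, CRK11, CRK18, CRK19, CRK20, CRK21, CRK56, CRK64, CRK84, CRK85 and CRK86. CRK64, a single gene on chromosome 19, had the longest marked length, with H3K4me3 over 2176 bp, H3K56ac over 2775 bp and H3K36me3 over 2400 bp, or 55.4% of the gene. The single gene CRK11 on chromosome 8 carried 1901, 1937 and 2175 bp of the same marks, and the single gene CRK56 on chromosome 18 carried 1850, 1899 and 1689 bp. These were the 3 single members with the full set, and each had more than 1500 bp of every mark. CRK85 had the largest share of its length under H3K36me3, 68.0% or 2400 bp, and CRK18 followed with 60.8% or 2052 bp.

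Where H3K36me3 was present at a CRK gene, it usually covered less than 50% of it. The share of the gene under H3K36me3 ran from 6.01% at CRK2 to 68.0% at CRK85, with a median of 36.1% over the 14 members. Over the 23935 protein-coding genes with H3K36me3 the median was 72.6%, with quartiles of 51.5% and 88.4%. At least 50% of the gene was covered at 3 members, CRK18, CRK64 and CRK85. In all 11 members with H3K36me3 and with H3K4me3 within 500 bp of 1 end, more of the H3K36me3 lay in the part of the gene nearer that end. This position was not counted here for other protein-coding genes, so it is not shown to be particular to CRK genes.

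The lengths under the narrow marks were close to those of other genes that carried them. The 58 members with H3K4me3 had a median of 1233 bp of it, with a range of 150 bp at CRK74 to 2714 bp at CRK49, against a median of 1138 bp over all protein-coding genes with this mark. After CRK49 the longest H3K4me3 was at CRK64 (2176 bp), CRK4 (2095 bp), CRK89 (1974 bp) and CRK16 (1960 bp). For H3K56ac the median over 49 members was 954 bp against 1085 bp. The longest were CRK64 (2775 bp), CRK20 (2634 bp), CRK87 (2210 bp), CRK41 (2114 bp) and CRK75 (2019 bp), and the shortest was CRK67 with 4 bp inside the window of 1 kb.

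By the 50 kb rule, clustered and single CRK genes had close shares of the narrow marks. H3K4me3 was at 46 of 67 clustered genes (68.7%, interval 56.2 to 79.4) and at 12 of 18 single genes (66.7%, interval 41.0 to 86.7). The difference, single minus clustered, was -1.99 percentage points with an interval of -26.9 to 18.8. H3K56ac was at 39 clustered genes (58.2%, interval 45.5 to 70.2) and 10 single genes (55.6%, interval 30.8 to 78.5), a difference of -2.65 points with an interval of -27.1 to 20.5. These intervals are wide, so the counts do not show that the kinds are alike, and other choices gave wider differences. With a cluster gap of 20 kb, H3K4me3 was at 53.3% of single and 76.4% of clustered genes, and counted by overlap with the gene itself, H3K56ac was at 72.2% and 55.2%.

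H3K36me3 was more frequent at single genes, by a margin within counting error. It was found at 5 of 18 single genes (27.8%, interval 9.69 to 53.5) and 9 of 67 clustered genes (13.4%, interval 6.33 to 24.0), a difference of 14.3 points with an interval of -4.01 to 38.3. With a cluster gap of 20 kb the difference was 0.303 points, 16.7% against 16.4%, and with at least 50% of the gene covered it was 2.57 points. All 3 marks were at 3 single and 8 clustered genes, 16.7% and 11.9%, and no mark was at 3 single and 15 clustered genes, 16.7% and 22.4%. With narrow marks counted by overlap with the gene itself, all 3 marks were at 27.8% of single and 11.9% of clustered genes. With a cluster gap of 20 kb they were at 10% and 14.5%. The kinds were similar in length, with medians of 4726 bp for single and 4364 bp for clustered genes. The nearest other gene of any type lay a median 5.34 kb from a single gene and 2.42 kb from a clustered gene. Copies in a cluster can resemble each other, and how reads matching several copies were treated is not stated in the labels or files. Its part in the calls was not tested.

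**Figure D2:**
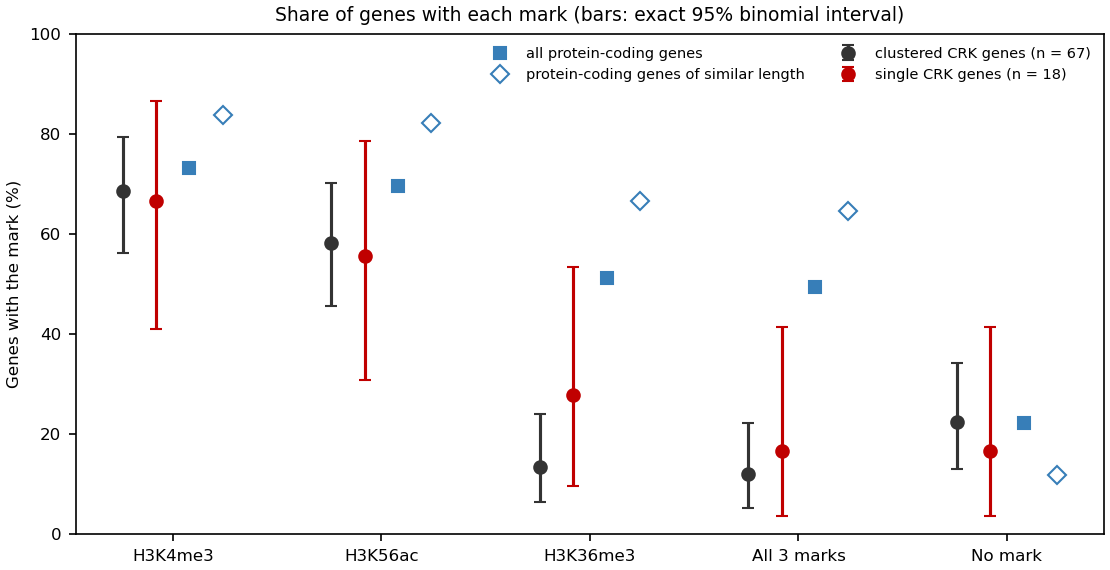
Share of genes in percent with each mark, all 3 marks or no mark, for 67 clustered CRK genes, 18 single CRK genes, all protein-coding genes and protein-coding genes between the length quartiles of the CRK genes; bars are exact 95% binomial intervals. For H3K36me3 the clustered and single CRK genes stand at 13.4% and 27.8%, below the 51.1% of all protein-coding genes.

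The share of clustered genes pooled the genes of clusters that differed widely in size and marks. H3K4me3 was at every member in 4 clusters, at no member in 4 and at some in the other 7. Clusters of 8 or more genes, of which there are 2, carried it at 31 of 33 members (93.9%, interval 79.8 to 99.3), and the 3 clusters of 4 or 5 genes at 4 of 13 (30.8%, interval 9.09 to 61.4). H3K56ac was at 26 of 33 and 0 of 13 of the same genes, the latter with an interval of up to 24.7%. The clusters of 2 or 3 genes had H3K4me3 at 11 of 21 and H3K56ac at 13 of 21. Without the largest cluster, H3K4me3 was at 23 of 42 clustered genes (54.8%), and single genes stood 11.9 points higher. Without the second largest they stood 2.26 points higher, where with all clusters the difference was -1.99 points. For H3K56ac the difference of -2.65 points became 5.56 and 3.01 points.

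The largest cluster, CRK65 to CRK91 on chromosome 20, holds 25 genes in 266 kb with a median gap of 4.80 kb. H3K4me3 was at 23 of its genes, H3K56ac at 18 and H3K36me3 at 3. CRK72 alone was unmarked, and CRK68 carried 889 bp of H3K4me3 farther than 1 kb from its ends. The marks were uneven along the cluster. Among its first 12 genes in map order, CRK65 to CRK77, H3K56ac was at 6 with a median of 2 bp, and among the last 13, CRK78 to CRK91, at 12 with a median of 1176 bp. This division of the cluster was made after its values were seen.

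H3K36me3 in the chromosome 20 cluster was at 3 genes in a row. CRK84 carried 2000 bp of it, CRK85 2400 bp and CRK86 318 bp. Their H3K4me3 lengths were 1447, 1323 and 1937 bp, and their H3K56ac lengths 1437, 1344 and 1767 bp. At CRK86, 599 bp of the H3K4me3 and 550 bp of the H3K56ac lay in the gene, and it shares peaks of both marks with CRK87. Its H3K36me3 region also runs on beyond the gene. CRK84 overlaps another annotated gene, so its marks cannot be assigned to 1 of the pair. In contrast, CRK73, CRK76 and CRK77 carried 957, 1110 and 710 bp of H3K4me3 without any H3K56ac, and CRK70, CRK74 and CRK78 had short H3K4me3 peaks alone, of 283, 150 and 155 bp.

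CRK16 to CRK24 on chromosome 10, the second largest cluster, carried both narrow marks throughout. All 8 genes carried H3K4me3, with lengths of 1053 bp at CRK17 to 1960 bp at CRK16, and all 8 carried H3K56ac, with 463 bp at CRK23 to 2634 bp at CRK20. H3K36me3 was at 4 neighbours in map order, CRK18 (2052 bp), CRK19 (1000 bp), CRK20 (1000 bp) and CRK21 (1400 bp), and not called at CRK16, CRK17, CRK23 and CRK24. Together the clusters on chromosomes 10 and 20 held 7 of the 8 clustered genes with all 3 marks. The eighth was CRK5 on chromosome 1, with 1391, 1087 and 1055 bp, whose neighbours CRK3 and CRK4 carried the narrow marks alone.

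**Figure D3:**
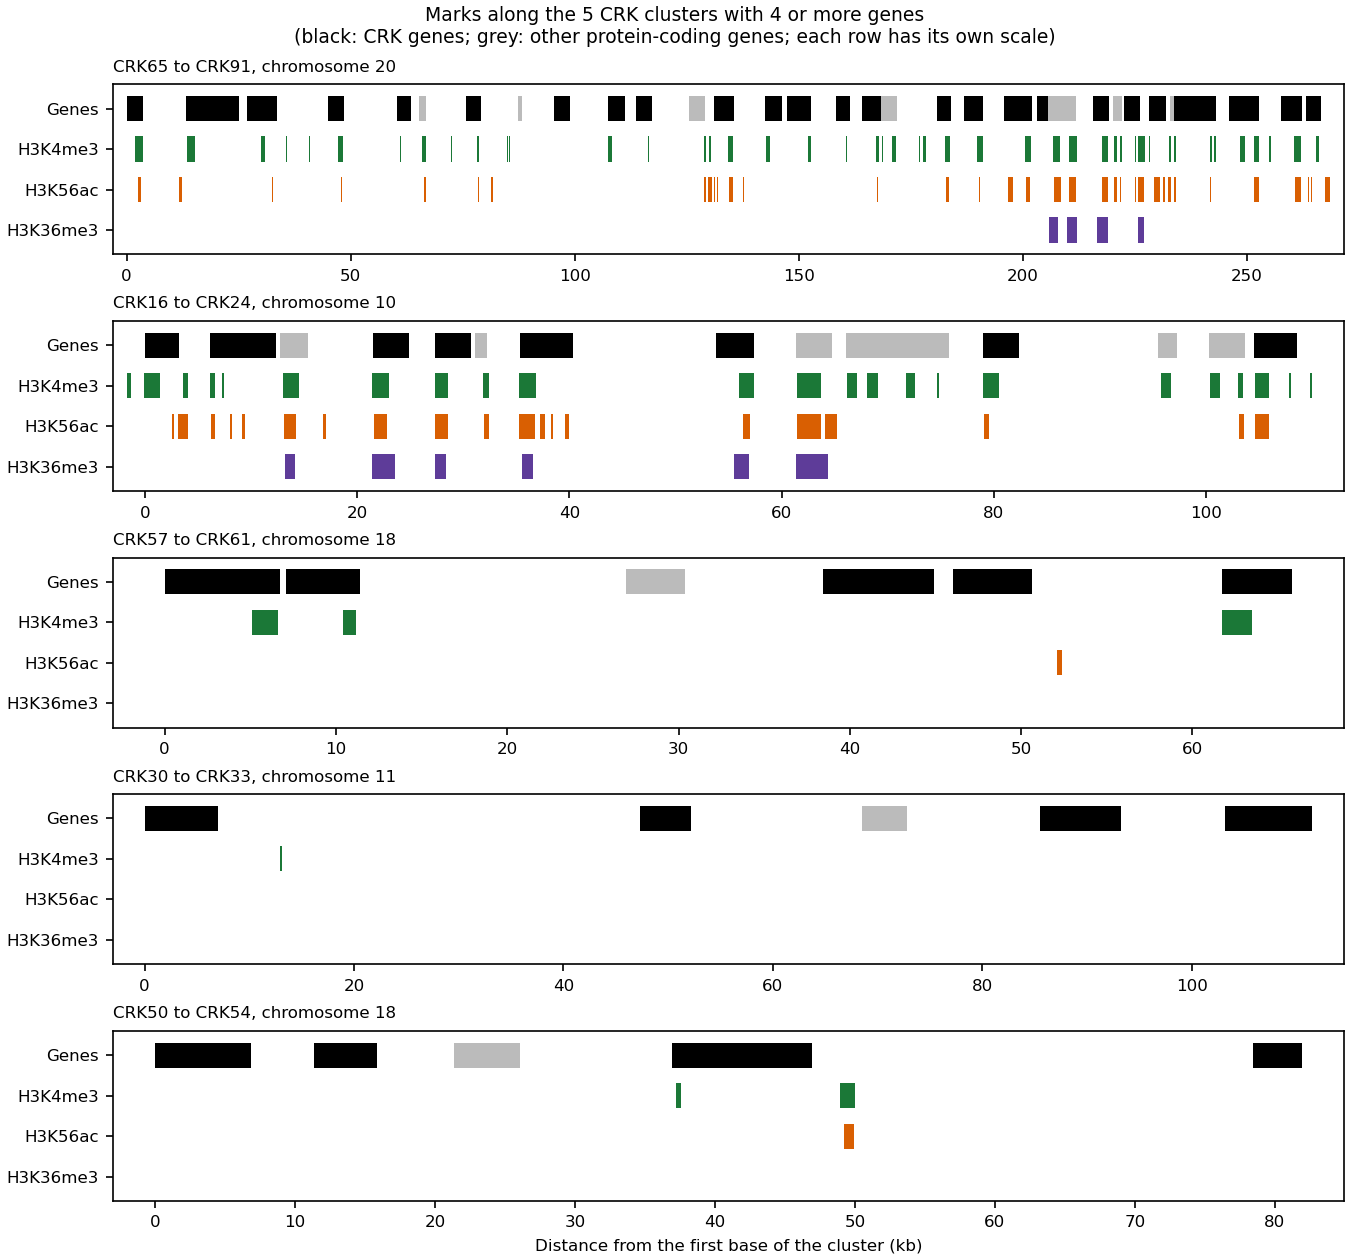
CRK genes (black), other protein-coding genes between them (grey) and peaks of the 3 marks along the 5 clusters with 4 or more CRK genes, against the distance in kb from the first base of each cluster; the scale differs between rows. H3K36me3 lies in the clusters on chromosomes 10 and 20 alone, and the 4 genes CRK30 to CRK33 have no peak.

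On chromosome 11 the CRK genes were widely spaced and sparsely marked. Of its 16 members, 14 were clustered, in 6 clusters with median gaps of 2.36 kb to 40.8 kb. H3K4me3 was at 5 of these 14 (35.7%, interval 12.8 to 64.9) and H3K56ac was at 5. None had H3K36me3 (0 of 14, interval up to 23.2%), and 7 had no mark. CRK30 to CRK33 and the pair CRK26 and CRK27 had no peak in the genes or their flanks. The other genes around these clusters were also often unmarked: among the 31 protein-coding genes within 200 kb of them, 18 had no mark (58.1%, interval 39.1 to 75.5), against 76 of 364 (20.9%) around all clusters. The surroundings and the CRK genes went together in some of these clusters and not in others. Around the unmarked CRK30 to CRK33, 8 of 8 genes had no mark, and around the marked CRK28 and CRK29, 3 of 7 had H3K4me3. By contrast, 13 of 21 genes around the unmarked CRK26 and CRK27 had H3K4me3. For the marked pairs CRK34 with CRK35 and CRK40 with CRK41, 0 of 8 and 0 of 2 genes around had any mark. For CRK36 with CRK37, of which CRK37 alone was marked, it was 0 of 9. The 1 gene between CRK40 and CRK41 had H3K56ac. The surroundings of clusters near each other overlap, so these counts hold some of the same genes and are not separate cases. How far the surroundings bear on the CRK genes was not tested.

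The chromosome 11 genes with marks differed among themselves. CRK28, the longest member with 14914 bp, carried 1029 bp of H3K4me3 alone, and its neighbour CRK29 carried 342 bp of it alone. CRK37 had H3K4me3 over 1046 bp and H3K56ac over 1235 bp, next to the unmarked CRK36. CRK40 had H3K56ac alone, over 913 bp. CRK41 had H3K56ac over 2114 bp and H3K4me3 over 1176 bp, the latter farther than 1 kb from either end. The single genes of this chromosome were CRK25, with H3K4me3 over 272 bp and H3K56ac over 303 bp, and CRK39, with 618 bp of H3K56ac.

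The clustered CRK genes of chromosome 18 had H3K4me3 alone or no mark, and none had H3K56ac. An H3K56ac peak did lie between CRK genes in each cluster, farther than 1 kb from them. In CRK57 to CRK61, H3K4me3 covered 1528 bp at CRK57, 1310 bp at CRK58 and 1753 bp at CRK61, with no H3K56ac or H3K36me3 at any of the 5 genes, and CRK59 and CRK60 were unmarked. CRK57 and CRK58 lie 0.345 kb apart and share an H3K4me3 peak within their windows, which lies in CRK57. The 1310 bp at CRK58 take in part of this peak. A further 763 bp lay in CRK58 itself, so its call does not rest on the shared peak. In CRK50 to CRK54, CRK53 carried 365 bp of H3K4me3, and CRK50, CRK51 and CRK54 were unmarked. Unlike on chromosome 11, the genes around were mostly marked. Within 200 kb of CRK57 to CRK61, 27 of 35 other protein-coding genes had H3K56ac, and within 200 kb of CRK50 to CRK54, 35 of 45 had it.

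Among the single genes, marks ran from none to the full set. CRK1, CRK13 and CRK62 were without any peak. CRK9 and CRK55 had short H3K4me3 peaks alone, of 233 and 275 bp, and CRK63 had 974 bp of H3K56ac alone. CRK8, CRK14, CRK15, CRK25 and CRK44 carried both narrow marks, with the longest at CRK15, where H3K4me3 covered 1676 bp and H3K56ac 1641 bp. CRK49 had the longest H3K4me3 of all members, 2714 bp, with 600 bp of H3K36me3 and 726 bp of H3K56ac in the interior of the gene. CRK12 likewise carried 1587 bp of H3K4me3 and 241 bp of interior H3K56ac.

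**Figure D4:**
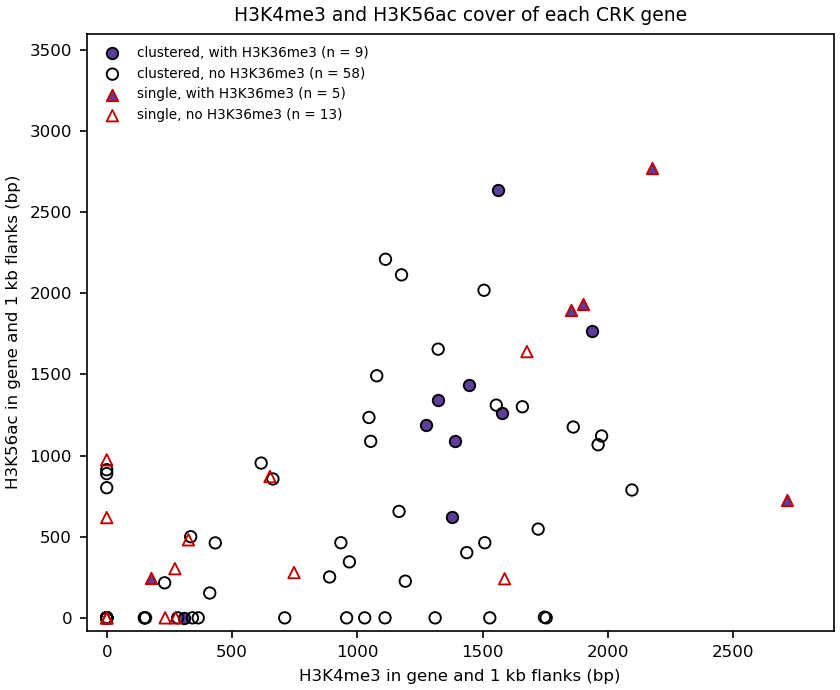
H3K4me3 length against H3K56ac length in bp, in the gene and 1 kb either side, for each of the 85 CRK genes (circles: clustered; triangles: single; filled: with H3K36me3). Points on the lower axis to the right of the origin are genes with H3K4me3 and no H3K56ac, such as CRK61 at 1753 bp. The 17 genes without a peak of any mark lie at the origin, and the filled triangle at the upper right is CRK64.

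The narrow marks lay at 1 end of the gene and inside it. H3K4me3 was within 500 bp of 1 end at 47 members (55.3%) and of both ends at 4 (4.71%), against 55.2% and 14.2% of all protein-coding genes. For H3K56ac it was 39 members (45.9%) at 1 end and 4 at both, against 48.9% and 16.9%. In 28 of the 29 members with each mark at 1 end alone, both marks shared that end. The exception was CRK87, with H3K4me3 near its left end and H3K56ac near its right end. Both of these peaks lay inside the gene, apart from those it shares with CRK86 and CRK88. No such count is given here for other protein-coding genes, so the shared end is not shown to be particular to CRK genes. The table gives no strand, so which end is the start of the gene is not known here.

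H3K4me3 lay wholly inside the annotated gene at most CRK genes that carried it. At 39 of the 58 members with it (67.2%) all of the H3K4me3 counted lay within the gene, against 29.1% of the 34227 protein-coding genes with this mark and 30.2% of those between the members' length quartiles. For H3K56ac it was 23 of 49 (46.9%), against 27.8% of protein-coding genes. The members' H3K4me3 lay wholly inside at 30 of 46 clustered and 9 of 12 single genes. The length counted takes in 1 kb either side, where peaks of a close neighbour can lie. The compared genes were not matched for distance to the next gene. The part of this distance in these shares, and in those at both ends above, was not tested.

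At 5 members the H3K4me3 lay inside the gene alone, farther than 1 kb from either end, and was not counted above. These were CRK41 and CRK68 and, with short peaks, CRK2 (178 bp), CRK47 (151 bp) and CRK48 (310 bp). The same held for H3K56ac at CRK2, CRK12 and CRK49. By these rules CRK47 was unmarked, and the other 17 unmarked genes had no peak at all in the gene or its flanks. The longest unmarked genes were CRK1 (8712 bp), CRK33 (8335 bp), CRK32 (7693 bp), CRK30 (7050 bp) and CRK50 (6844 bp).

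Neighbouring CRK genes in a cluster often had the same marks. Of 52 such pairs, 29 (55.8%) fell into the same class, against 42.5% of the 43781 pairs of neighbouring protein-coding genes within 50 kb of each other. The pair had the same H3K4me3 call in 40 cases (76.9%, against 70.3%), the same H3K56ac call in 44 (84.6%, against 67.8%) and the same H3K36me3 call in 46 (88.5%, against 58.5%). For H3K36me3, which most members lack, like calls are frequent by arithmetic. A shared peak lay in the windows of both genes in 4 pairs, and without these 26 of 48 pairs (54.2%) had the same class.

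Other genes of receptor and defence signalling had shares near those of ordinary genes of the CRK genes' length, and above those of the CRK genes. A list by symbol matched 25 genes, among them receptor kinases, MAP kinases and disease resistance regulators. H3K4me3 was at 24 of them, H3K56ac at 20, H3K36me3 at 17 and all 3 at 17 (68.0%, interval 46.5 to 85.1), where 64.6% of protein-coding genes between the members' length quartiles had all 3. The longest marked lengths were at MAPKK2 (a MAP kinase kinase), with H3K36me3 over 100% of the gene, PERK1 (a receptor-like kinase), with 85.3%, and RAR1-2 (a regulator of resistance proteins), with 80.1%. The brassinosteroid receptor genes BRI1A and BRI1B had 41.5% and 39.4%. LYK4, of the family of LysM receptor kinases, was the unmarked gene, and NARK, the receptor kinase that limits nodule number, had H3K4me3 alone. The listed genes LRK1, SIK2 and LYK10 also had H3K4me3 alone. The shares pool unlike kinds of genes, and the receptor kinases, which are most like the CRK genes, were not counted apart. These genes were picked by the names soybean genes happen to have, so the list is small and uneven.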

How the data were processed

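ChIP-seq peak lists of soybean leaf H3K4me3, H3K56ac and H3K36me3 were used, 1 library each. The inputs and the maize sample were not analysed here. Tissue was fixed with 1% formaldehyde and sonicated, per the labels' protocols. Trimmomatic, Bowtie2, Picard, SICER and MACS2 are named in the submitters' processing notes, without versions or roles. The caller of each list, its threshold and the soybean build are not stated in the labels or files. The deposited values are positions in bp without score or depth. The design text names H3K4me1 for soybean where the sample's title gives H3K4me3, and the title was followed.

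Broad regions lie on a grid of 200 bp and their ends were moved by 1 bp to match the narrow lists. Gene names and positions came from the RefSeq table of Glycine_max_v4.0, and no coordinates of it are printed. In each of the 21 windows of 5 Mb with members, 25.3% to 44.3% of H3K4me3 peaks had their midpoint within 500 bp of a gene end. This was above the value after shifts of 20 and 100 kb in both directions in every window, and among shifts of up to 10 kb it was highest at 500 bp or less.

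H3K4me3 and H3K56ac were counted at a gene from 1 bp of a peak within 1 kb of either end, and H3K36me3 from 1 bp of a region in the gene. Gaps run between gene ends. Shares have exact (Clopper-Pearson) 95% intervals (SciPy 1.17.1), and differences Newcombe intervals (statsmodels 0.14.6). Overlaps were tested on simulated data. There was no test, since each mark had 1 library. Any CRK gene could be named, in full those with all 3 marks, the longest cover, the longest unmarked and the largest clusters. Members and lists were chosen with earlier results of these data known. Planned checks of protein and promoter motifs were not run, as no sequence was used.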

Additional observations from a re-analysis of the deposited data

How the results depend on the processing

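With the longer 50% of each list, the counts of the 85 CRK genes were 36 for H3K4me3, 27 for H3K56ac, 1 for H3K36me3, 0 for all 3 marks and 43 for no mark, where 49.4%, 50.2%, 30.6%, 23.1% and 39.1% of all protein-coding genes had them. With H3K36me3 required over at least 50% of the gene, 3 CRK genes had it and the same number had all 3 marks, against 39.1% and 38.3% of protein-coding genes. Under the other alternatives, which were windows of 500 bp, the gene itself, the gene with its flanks, each peak for its nearest gene and an overlap of 100 bp, all 5 counts stayed within 1.5 times the reported ones. H3K36me3 was called in the gene alone, so the windows, flanks and nearest gene could not change its count.

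The differences between single and clustered genes stayed inside their intervals in all 14 alternatives, but their signs did not hold except for H3K36me3. This mark was more frequent at single genes in each, by 0.303 points with a cluster gap of 20 kb to 20.5 points with one of 100 kb. Several alternatives could not change it, so its steady sign is weak evidence. H3K36me3 was called in the gene alone, whatever the windows, flanks or nearest gene of the narrow marks. The limit to members of at least 2 kb left out no gene, as the shortest has 2887 bp. In all of these the difference stayed at 14.3 points. The sign changed in 4 alternatives for H3K4me3 (-23.0 to 11.9 points), 7 for H3K56ac (from -11.8 points with a gap of 20 kb to single genes at 72.2% and clustered at 55.2% for overlap with the gene itself), 1 for all 3 marks and 2 for no mark, among them the set without the clusters of chromosome 11 (1.57 points against -5.72). The cause was not tested. Leaving out the second largest cluster, or those of chromosome 11, and counting the gene with its flanks were chosen after seeing the data. Windows at the gene start alone and neighbours without a CRK symbol were not run, since the gene table has neither strand nor product names.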

Other observations

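Between the first and last CRK gene of the clusters lay 19 protein-coding genes with another name. H3K4me3 was at 12 of them, H3K56ac at 12 and H3K36me3 at 3 (15.8%, exact 95% interval 3.38 to 39.6), and 6 had no mark. Among the 364 protein-coding genes within 200 kb outside the clusters, H3K36me3 was at 193 (53.0%, interval 47.8 to 58.2), H3K4me3 at 73.9% and H3K56ac at 69.8%. Around single CRK genes, H3K36me3 was at 162 of 331 genes (48.9%, interval 43.4 to 54.5). Whether the genes between the members belong to the same family cannot be read from the table.

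Clustered genes with another CRK gene within 5 kb had H3K4me3 at 32 of 39 (82.1%, interval 66.5 to 92.5), and those with the next one 5 to 50 kb away at 14 of 28 (50%, interval 30.6 to 69.4). H3K56ac was at 25 of 39 and 14 of 28, and no mark at 5 and 10. This limit of 5 kb was chosen after the values were seen. Of the second set, 12 genes lie on chromosome 11, and 3 of these had H3K4me3.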
